A study of Mus musculus with 5 samples.

Results

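The genes described here are 10 secreted members of the Wnt pathway in mouse white fat: the ligands Wnt2 and Wnt5a, the R-spondins Rspo1 and Rspo3, the secreted Frizzled-related proteins Sfrp1, Sfrp2, Sfrp4 and Sfrp5, and the Dickkopf proteins Dkk2 and Dkk3. They were taken as a named list of 10 genes out of the 32285 in each count table, and all 10 were present. Single-nucleus RNA sequencing had been run on white adipose tissue of chow-fed C57BL/6J males aged 10 weeks, so fat cells and their neighbours were read from nuclei. The depots were subcutaneous (SWAT, 6 mice), epididymal (EWAT, 6 mice), mesenteric (MWAT, 10 mice), perirenal (NWAT, 6 mice) and peri-heart (HWAT, 20 mice) fat. Tissue was pooled within a depot into 1 library, so a difference between depots is a difference between 5 pooled libraries with no replicate and no test. All animals had been perfused with PBS containing heparin, and in SWAT and MWAT the neighbouring lymph nodes had been cut away. In the strain field of the labels, C57BL/7J stands beside MWAT, C57BL/8J beside NWAT and C57BL/9J beside HWAT, where the protocol text has C57BL/6J.

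Wnt ligands are lipid-modified secreted proteins that bind Frizzled receptors and, through β-catenin or through other routes, direct cell fate. R-spondins bind Lgr receptors and keep Frizzled receptors at the cell surface, whereas Sfrp proteins bind Wnt ligands outside the cell and Dickkopf proteins of the Dkk2 type bind the Lrp co-receptors. In fat, β-catenin signalling is known to hold precursors back from becoming adipocytes, and stromal cells are a known source of its secreted modulators.

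After filtering, 66249 of 76040 nuclei were retained, 11094 to 16642 per library with a median of 1190 to 2534 UMIs (unique molecular identifiers, 1 per captured transcript). Between any pair of libraries 40 to 87 barcodes were shared, at most 0.601% of a library. Nuclei were clustered without any of the 100 genes of the Wnt lists, so that no class rests on the genes described. They formed 41 clusters, of which 39 could be named from marker genes. The fibro-adipogenic progenitors (FAP-like nuclei, stromal cells that include adipocyte precursors) numbered 1116 in SWAT, 923 in EWAT, 1097 in MWAT, 780 in NWAT and 338 in HWAT. Their 8 defining markers, Pdgfra and Dcn among them, were all detected in each library. Mesothelial-like nuclei, the cells that line the visceral surfaces, numbered 1591 in EWAT, 3900 in MWAT, 947 in NWAT and 4052 in HWAT, with 1 in SWAT. Adipocyte-like nuclei numbered 6266, 8262, 3744, 6156 and 1862 in SWAT, EWAT, MWAT, NWAT and HWAT. Unnamed nuclei made up 3.12% of MWAT and from 0.00634% (EWAT) to 0.433% (SWAT) of the others. Levels are given as CPM, the counts of a gene scaled to a common total of all UMIs of a class in a library, with exact 95% Poisson intervals of counting error in brackets. They count transcript 3′ ends and are compared between cells, never between genes. RNA freed from broken cells reaches every droplet, so the level in immune-like nuclei of the same library is given as its measure.

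**Figure D1:**
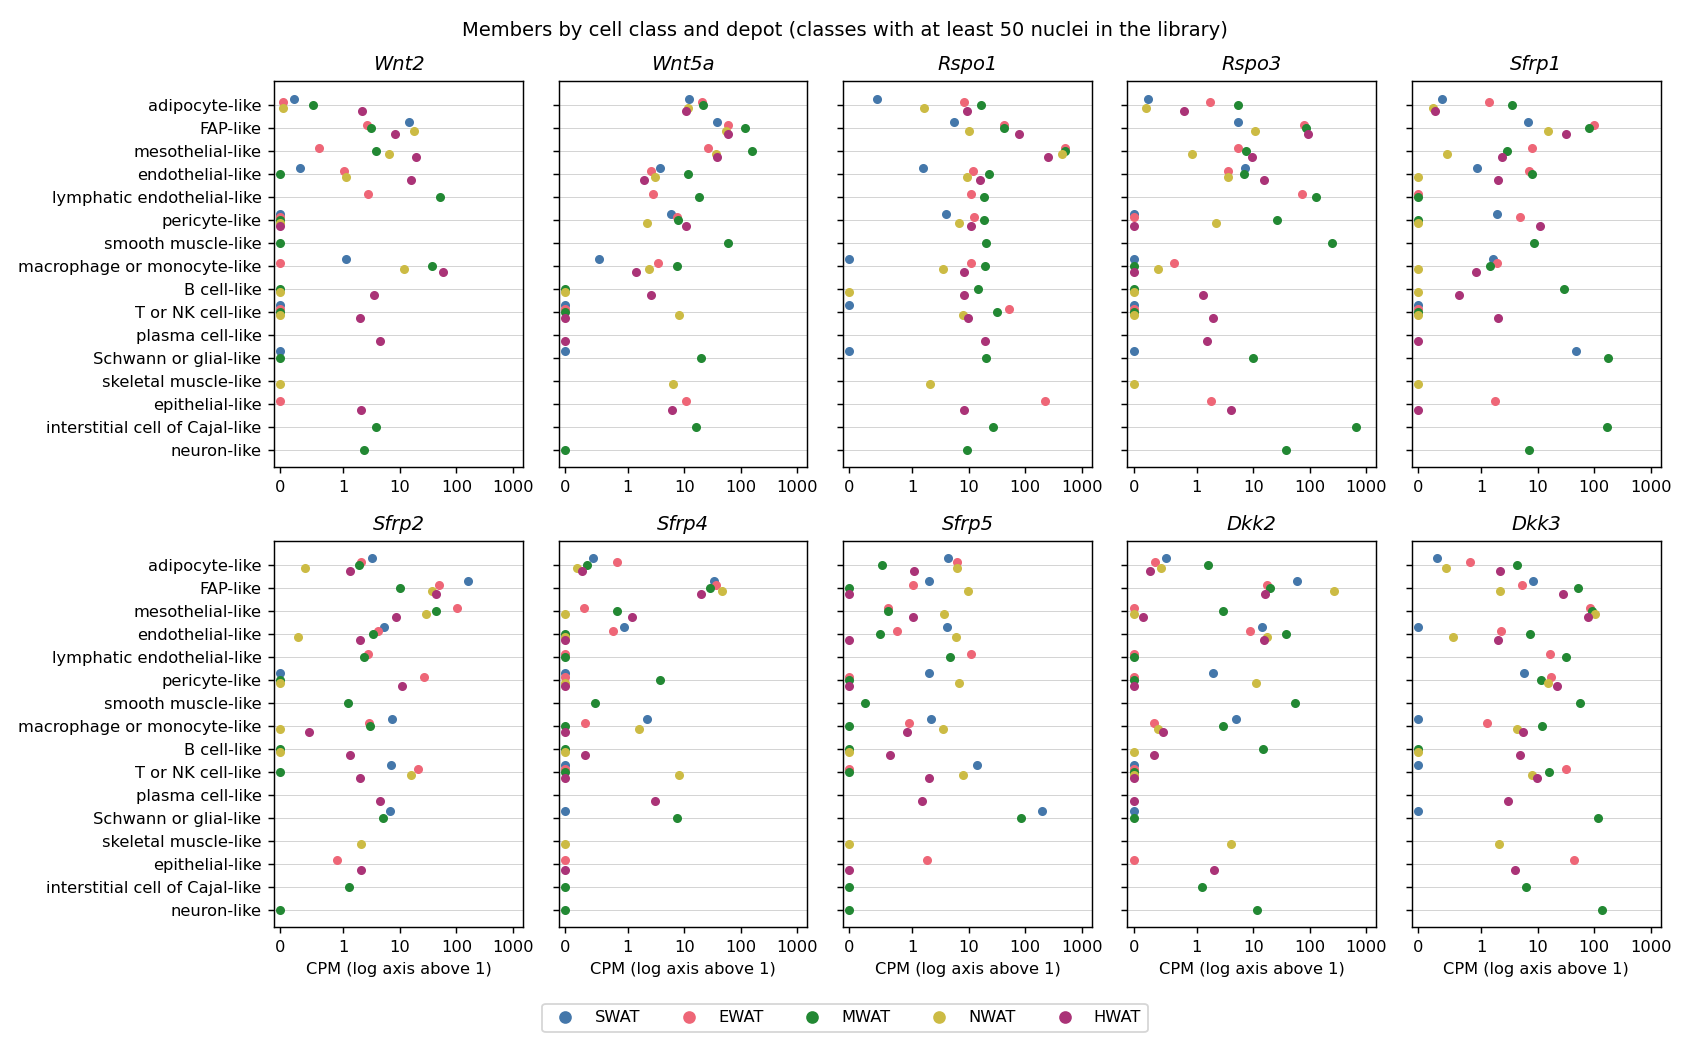
CPM of each of the 10 genes in every cell class with at least 50 nuclei in a library, with 1 point per depot. The horizontal axis is linear up to 1 CPM and logarithmic above. Rspo1 is highest in mesothelial-like nuclei (247 to 512 CPM), Sfrp4 in FAP-like nuclei (20.1 to 46.6 CPM), and Sfrp5 in the Schwann-like nuclei of SWAT (195 CPM).

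In FAP-like nuclei the members fell into depot patterns. Rspo1, Rspo3 and Sfrp1 were low in SWAT and NWAT and higher in EWAT, MWAT and HWAT. Dkk2 ran the other way, with its highest level in NWAT, and Sfrp2 was highest in SWAT. Wnt5a and Dkk3 were highest in MWAT, and Sfrp4 was called in no depot. Without a FAP-like cluster found in MWAT alone, Dkk3 in MWAT could not be told from HWAT. A gene was called higher or lower where its log2 CPM lay 1 or more (2-fold) from the mean of the other 4 depots. All 10 members passed the minimum of 20 counts, Sfrp5 only through the 18 counts of NWAT. The counts below include its calls, higher in NWAT and lower in MWAT. Both rest on those 18 counts and are not read as a result. In SWAT 2 members were higher and 3 lower, against 5.42% and 7.26% of the 13107 genes tested. In EWAT 3 were higher and 3 lower, against 5.0% and 4.46% of all genes. In MWAT 4 were higher and 4 lower, against 8.30% and 5.18%. In NWAT 3 were higher and 4 lower, against 3.93% and 7.48%. In HWAT 3 were higher and 1 lower, against 10.3% and 12.3%. The 5 comparisons share libraries, since each depot is also in the mean of the others. The median difference of the members stayed between -0.21 and 0.39 (log2), because members moved in both directions. Over all genes it lay between -0.06 and 0.07.

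**Figure D2:**
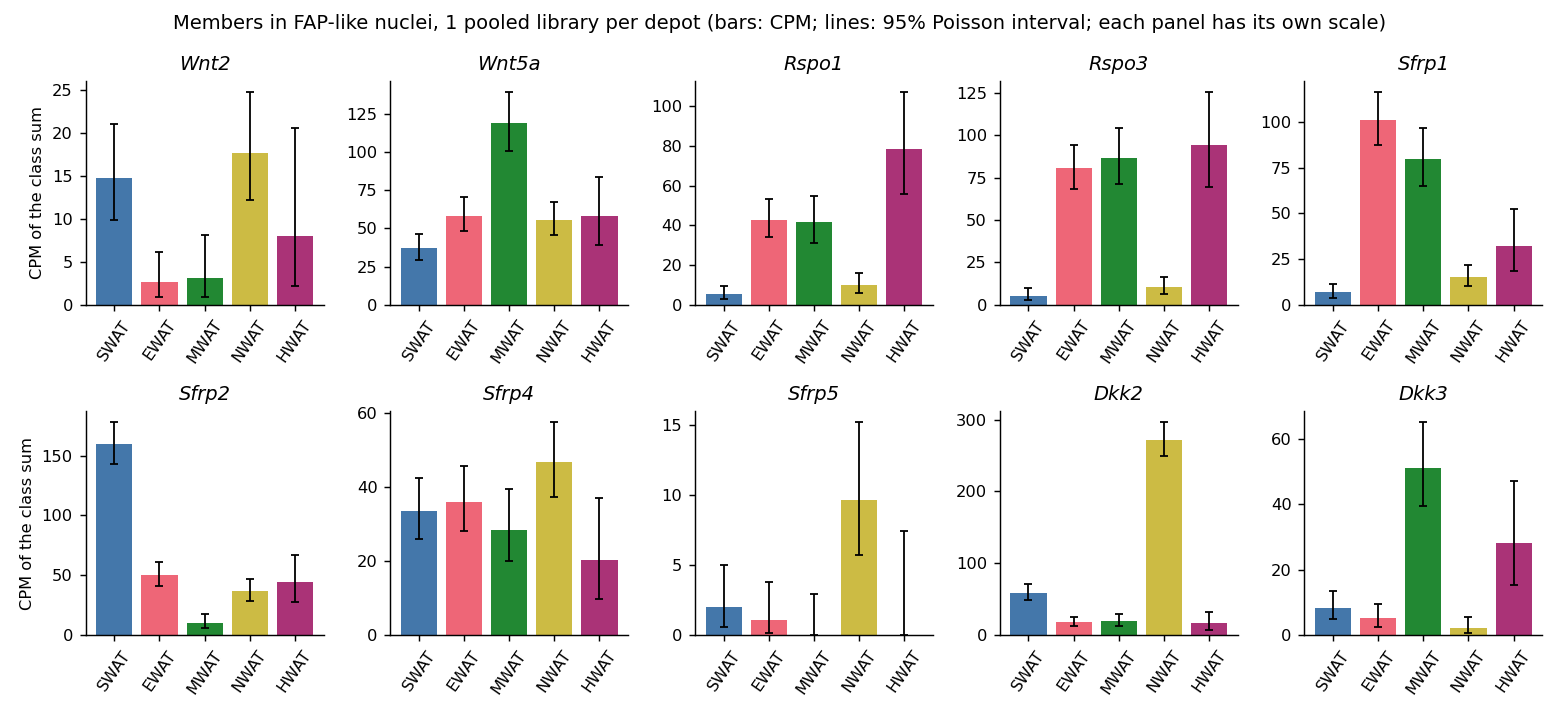
CPM of the 10 genes in FAP-like nuclei of the 5 depots, as bars with 95% Poisson intervals. Each panel has its own vertical scale. The panels of Rspo1, Rspo3 and Sfrp1 show low bars in SWAT and NWAT, and the panel of Dkk2 shows its highest bar in NWAT at 272 CPM.

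Wnt5a, a ligand best known for β-catenin-independent signalling, lies on chromosome 14 (28504750 to 28527448, plus strand). In FAP-like nuclei it measured 37.3 CPM (29.4–46.7) in SWAT, 58.4 (48.1–70.3) in EWAT, 119 (101–140) in MWAT, 55.7 (45.5–67.5) in NWAT and 58.4 (39.1–83.9) in HWAT. The interval of MWAT lay apart from the others, while EWAT, NWAT and HWAT could not be told from each other. MWAT stood 3.19-fold (2.41–4.26) above SWAT and 2.04-fold (1.59–2.63) above EWAT. Immune-like nuclei held 0.506 to 6.14 CPM, and the FAP-like level was above theirs in all 5 libraries.

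Wnt5a was the member that adipocyte-like nuclei carried above the immune-like level in every library. Its levels there were 12.0 CPM (10.2–14.0) in SWAT, 20.5 (18.6–22.5) in EWAT, 21.7 (18.1–25.9) in MWAT, 11.6 (10.2–13.2) in NWAT and 10.7 (7.61–14.5) in HWAT. EWAT and MWAT were alike within counting error and lay above the other depots, whose intervals overlapped. Because adipocytes are numerous, their share of all Wnt5a counts reached 63.4% for SWAT, 64.1% for EWAT and 54.2% for NWAT. In MWAT and HWAT mesothelial-like nuclei held 56.1% and 75.1%.

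Wnt2, a ligand of the β-catenin route, lies on chromosome 6 (17988940 to 18030585, minus strand). In FAP-like nuclei it measured 14.7 CPM (9.93–21.0) in SWAT, 2.61 (0.847–6.09) in EWAT, 3.15 (0.859–8.08) in MWAT, 17.7 (12.2–24.8) in NWAT and 8.06 (2.20–20.6) in HWAT. SWAT and NWAT were alike within counting error and above EWAT and MWAT, while HWAT rested on 4 counts. NWAT stood 6.78-fold (2.63–22.2) above EWAT. With the immune-like level subtracted this ratio was 2.38, since immune-like nuclei of NWAT themselves held 11.1 CPM. That level is no measure of free RNA for Wnt2, because it comes almost wholly from the macrophage cluster described next.

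Wnt2 was also found in macrophage- or monocyte-like, lymphatic endothelial-like and mesothelial-like nuclei. Macrophage- or monocyte-like nuclei measured 1.10 CPM in SWAT (2 counts), 0 in EWAT, 36.6 (23.7–54.1) in MWAT, 12.1 (8.21–17.2) in NWAT and 58.3 (48.6–69.4) in HWAT. In EWAT no count fell in 1642 nuclei, so HWAT was at least 61.4-fold higher, against a limit of 3 counts. All 127 counts of HWAT, all 25 of MWAT and 30 of the 31 of NWAT came from 1 macrophage cluster, whose leading genes were Fcna, Lyz2, Timd4, Vsig4, the scavenger receptor genes Marco and Msr1, and complement C1q genes. It held 746 HWAT, 87 MWAT and 69 NWAT nuclei and none of SWAT or EWAT. In it Wnt2 measured 85.0 CPM (70.8–101) in HWAT, 174 (113–257) in MWAT and 156 (106–223) in NWAT. In the macrophage cluster led by F13a1 and Mrc1, which all depots shared, 0 counts of Wnt2 were found in each of the 5 libraries, with 175 to 946 nuclei. A share of 6.77% (5.41–8.35) of the HWAT macrophage-like nuclei held a Wnt2 UMI, and 4.09% of 978 nuclei after thinning to 1000 UMIs. In EWAT 0 of 1642 did, at median depths of 1638.5 and 1707.5 UMIs. Lymphatic endothelial-like nuclei of MWAT held 50.6 CPM (31.7–76.7), against 2.75 (0.0696–15.3) in EWAT.

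Rspo1 lies on chromosome 4 (124986430 to 125009099, plus strand) and Rspo3 on chromosome 10 (29452416 to 29535867, minus strand). Both encode secreted amplifiers of Wnt signalling. In FAP-like nuclei Rspo1 measured 5.40 CPM (2.69–9.66) in SWAT, 42.8 (34.0–53.1) in EWAT, 41.8 (31.3–54.7) in MWAT, 10.2 (6.13–15.9) in NWAT and 78.5 (55.9–107) in HWAT. SWAT and NWAT could not be told apart, nor could EWAT and MWAT, and HWAT stood 14.6-fold (7.31–31.5) above SWAT. Markers of mesothelial-like cells moved with it. The summed level of the 8 markers in FAP-like nuclei was 2.45 CPM in SWAT, where 5 of the 8 (Msln, Upk3b, Upk1b, Wt1 and Muc16) were at 0. It was 196 in EWAT, 297 in MWAT, 103 in NWAT and 409 in HWAT, with none at 0. Mesothelial-like nuclei held 10.2, 9.53, 6.73 and 5.18 Rspo1 counts per 100 counts of those markers in EWAT, MWAT, NWAT and HWAT. FAP-like nuclei held 21.9, 14.1, 9.90 and 19.2, and macrophage-like nuclei 12.1, 9.09, 9.47 and 5.19. The part of mesothelial RNA in the FAP-like level of Rspo1 was not tested further.

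Rspo3 in FAP-like nuclei measured 5.40 CPM (2.69–9.66) in SWAT, 80.9 (68.6–94.6) in EWAT, 86.7 (71.3–105) in MWAT, 10.7 (6.55–16.6) in NWAT and 94.7 (69.6–126) in HWAT. The depots formed a low pair and a high trio, within which no neighbours differed beyond counting error. HWAT stood 17.5-fold (8.97–37.5) above SWAT, EWAT 7.55-fold (4.72–12.7) above NWAT. Immune-like nuclei held 0 to 0.931 CPM of Rspo3, and mesothelial-like nuclei 0.929 to 9.71. A UMI of Rspo3 was found in 11.1% (9.10–13.3) of EWAT and 0.806% (0.369–1.53) of SWAT FAP-like nuclei, and in 6.60% and 0.640% after thinning to 1000 UMIs. In immune-like nuclei of EWAT the share was 0.116%, and in those of SWAT 0 of 1224. Median depths were 1990 and 1676.5 UMIs in the FAP-like nuclei of EWAT and SWAT, and 1682.5 and 1432 in their immune-like nuclei.

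MWAT held further sources of Rspo3. Nuclei like the interstitial cells of Cajal, the pacemaker cells of the gut wall, measured 664 CPM (609–723), and smooth muscle-like nuclei 250 (235–266), led by a cluster of 203 nuclei with 811 CPM (707–926). Smooth muscle-like nuclei held 55.4% and Cajal-like nuclei 28.6% of the Rspo3 counts of MWAT. Smooth muscle markers were also raised in the FAP-like nuclei of MWAT, with a sum of 1277 CPM against 28.4 to 107 in the other depots. Per 100 counts of those markers, smooth muscle-like nuclei held 1.40 Rspo3 counts and FAP-like nuclei of MWAT 6.79. In the 580 macrophage-like nuclei of MWAT, with 696 CPM of those markers, 0 Rspo3 counts were found. Lymphatic endothelial-like nuclei held 127 CPM (95.4–165) in MWAT and 74.3 (48.9–108) in EWAT.

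The sequence before the start site of Rspo1 is shown because its level differed between depots in both FAP-like and mesothelial-like nuclei. It runs over the 250 bases upstream of the RefSeq start on the plus strand (GRCm38.p6, chr4:124986180-124986429), 5′ to 3′, with 66.8% G and C and 22 CG pairs. Over the promoters of all genes the medians were 52.4% and 6. Capitals would mark a match to the TATA box (TATAAA) or to the Tcf/Lef motifs CTTTGAT and CTTTGAA on either strand, and there was none.
Rspo1: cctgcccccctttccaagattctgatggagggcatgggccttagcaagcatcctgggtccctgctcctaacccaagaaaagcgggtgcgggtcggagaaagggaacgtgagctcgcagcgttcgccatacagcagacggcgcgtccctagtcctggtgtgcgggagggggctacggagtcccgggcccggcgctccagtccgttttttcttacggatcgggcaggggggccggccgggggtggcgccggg

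Sfrp1 lies on chromosome 8 (23411502 to 23449632, plus strand) and encodes a secreted Wnt-binding inhibitor. In FAP-like nuclei it measured 6.87 CPM (3.76–11.5) in SWAT, 101 (87.5–116) in EWAT, 79.6 (64.9–96.8) in MWAT, 15 (9.97–21.7) in NWAT and 32.2 (18.4–52.3) in HWAT. EWAT stood 14.7-fold (8.57–27.5) above SWAT, and EWAT and MWAT could not be told apart. Part of the MWAT level came from a separate FAP-like cluster of 277 MWAT nuclei, led by Robo2, Pdgfra and Kcnn3, with 174 CPM (130–228). Without that cluster the MWAT level was 50.6 CPM (37.4–66.9). Schwann-like nuclei, the glia of peripheral nerve, held 172 CPM (134–218) in MWAT and 47.1 (18.9–97.1) in SWAT, and Cajal-like nuclei of MWAT 167 (140–198).

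Sfrp2, a related secreted inhibitor, lies on chromosome 3 (83766321 to 83774316, plus strand). In FAP-like nuclei it measured 160 CPM (143–178) in SWAT, 50.1 (40.6–61.2) in EWAT, 10.3 (5.46–17.5) in MWAT, 37.0 (28.8–46.8) in NWAT and 44.3 (27.8–67.1) in HWAT. SWAT lay above the others, EWAT, HWAT and NWAT overlapped, and MWAT lay below them. SWAT stood 15.6-fold (9.00–29.6) above MWAT and 3.19-fold (2.54–4.05) above EWAT. In immune-like nuclei of SWAT it measured 7.08 CPM. Within SWAT, 73.9% of the FAP-like counts came from 116 of 1116 nuclei. These belonged to a sub-cluster that matched the Cd142-type markers and had Prdm6 and Frmd5 among its leading genes. It measured 1020 CPM (895–1157), against 47.2 CPM in the rest of the SWAT FAP-like nuclei.

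The 250 bases before the Sfrp2 start (GRCm38.p6, chr3:83766071-83766320, plus strand) are shown beside those of Dkk2 below, since Sfrp2 was the member that lay farthest above the other depots in FAP-like nuclei of SWAT (2.38 log2). They held 63.6% G and C, 16 CG pairs and no match to the same motifs.
Sfrp2: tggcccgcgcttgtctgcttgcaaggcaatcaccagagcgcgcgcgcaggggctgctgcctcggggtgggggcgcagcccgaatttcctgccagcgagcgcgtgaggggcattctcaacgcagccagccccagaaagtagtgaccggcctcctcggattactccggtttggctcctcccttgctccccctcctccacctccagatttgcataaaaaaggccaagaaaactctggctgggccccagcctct

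Sfrp4 (chromosome 13, 19623104 to 19632994, plus strand), also a Wnt-binding protein, had no depot 2-fold from the mean of the others in FAP-like nuclei. It measured 33.4 CPM (25.9–42.3) in SWAT, 36.0 (28.0–45.6) in EWAT, 28.4 (19.9–39.3) in MWAT, 46.6 (37.3–57.5) in NWAT and 20.1 (9.66–37.0) in HWAT. The highest, NWAT, was 2.31-fold (1.20–5.0) above the lowest, HWAT, and every pair of neighbours in the order overlapped. With each nucleus given a class by its own markers this ratio was 4.50. FAP-like nuclei held 75.0 to 90.6% of the Sfrp4 counts of SWAT, EWAT, MWAT and NWAT, and 45.5% of the 22 counts of HWAT.

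Sfrp5 (chromosome 19, 42197971 to 42202252, minus strand), known in fat as an inhibitor of Wnt5a made by adipocytes, was low in the FAP-like nuclei. There it had 4 counts in SWAT, 2 in EWAT, 0 in MWAT, 18 in NWAT (9.64 CPM, 5.72–15.2) and 0 in HWAT. The 18 counts of NWAT lay in 6 of 780 nuclei, and the interval does not take this into account. NWAT was at least 4.08-fold higher than MWAT against a limit of 3 counts, but with each nucleus given a class by its own markers the ratio turned to 0.411. In adipocyte-like nuclei it measured 4.38 CPM (3.34–5.66) in SWAT, 6.17 (5.14–7.34) in EWAT, 0.522 (0.108–1.52) in MWAT, 6.14 (5.12–7.31) in NWAT and 1.07 (0.290–2.73) in HWAT. MWAT and HWAT were low and the other depots higher, with EWAT 11.8-fold (3.96–58.1) above MWAT. Beside immune-like nuclei of the same library, the adipocyte-like level was 6.72-fold (2.25–33.0) higher in EWAT. In SWAT that ratio was 1.44 (0.625–4.09) and in NWAT 1.72 (0.904–3.67), so there the level could not be told from that of free RNA.

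A small unnamed cluster held the densest Sfrp5. It had 107 nuclei, led by Tenm2, Ntng1, Sfrp5, Gpc6, Apod and Itgb4, and 445 Sfrp5 counts, or 1952 CPM (1775–2142). The level was 2131 CPM (1865–2423) in its 48 SWAT nuclei, 2121 (1529–2867) in 17 of MWAT, 1494 (1207–1828) in 23 of NWAT and 2115 (1669–2643) in 19 of HWAT. SWAT, MWAT and HWAT were alike. The interval of NWAT lay below that of SWAT but overlapped those of MWAT and HWAT. The cluster had no nucleus in EWAT. Its share of a library's Sfrp5 counts was 67.4% for SWAT, 48.8% for MWAT, 32.5% for NWAT and 80.2% for HWAT. Dkk3 also measured 118 CPM (78.0–172) in it. Schwann-like nuclei held 195 CPM (131–280) of Sfrp5 in SWAT and 84.8 (58.7–119) in MWAT.

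Dkk2, a secreted ligand of the Lrp co-receptors, lies on chromosome 3 (132085292 to 132180304, plus strand). In FAP-like nuclei it measured 58.9 CPM (48.8–70.4) in SWAT, 17.7 (12.3–24.8) in EWAT, 19.7 (12.8–29.1) in MWAT, 272 (249–297) in NWAT and 16.1 (6.96–31.7) in HWAT. NWAT lay far above the rest, SWAT came next, and EWAT, MWAT and HWAT could not be told apart. NWAT stood 4.62-fold (3.78–5.69) above SWAT and 16.9-fold (8.51–39.3) above HWAT. A Dkk2 UMI was found in 29.1% (25.9–32.4) of NWAT FAP-like nuclei and in 5.02% (3.81–6.47) of those of SWAT, or 17.9% and 3.41% after thinning to 1000 UMIs. Immune-like nuclei of NWAT, with a median of 1971 UMIs against 2242 in the FAP-like, had 1 nucleus with a Dkk2 UMI in 1293 (0.0773%). In NWAT FAP-like nuclei held 85.7% of all Dkk2 counts.

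The 250 bases before the Dkk2 start (GRCm38.p6, chr3:132085042-132085291, plus strand) are shown because this was the member with the largest single-depot difference (3.47 log2 in NWAT). Capitals mark a TATA box match, TATAAA, 32 bases before the start. Among the 32851 promoters of this length, 12.4% held TATAAA on either strand, 3.21% CTTTGAT and 4.46% CTTTGAA. Of the 5 members whose promoter was matched in the table used (Wnt2, Rspo1, Sfrp2, Sfrp5 and Dkk2), only Dkk2 had a match to any of these 3 motifs.
Dkk2: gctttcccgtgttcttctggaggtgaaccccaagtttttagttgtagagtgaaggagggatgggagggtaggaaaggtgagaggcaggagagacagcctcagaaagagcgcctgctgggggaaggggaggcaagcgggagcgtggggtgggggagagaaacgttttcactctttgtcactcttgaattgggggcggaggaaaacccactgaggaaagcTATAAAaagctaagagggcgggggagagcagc

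Among endothelial-like nuclei, Dkk2 was highest in a cluster led by Mecom and Ptprb, with the arterial genes Sox17 and Bmx also among its leading genes. In that cluster it measured 75.9 CPM (54.7–103) in SWAT, 31.8 (21.6–45.1) in EWAT, 153 (120–191) in MWAT, 82.2 (60.2–110) in NWAT and 74.3 (32.1–146) in HWAT. MWAT was highest and EWAT lowest, and the other depots overlapped. The endothelial-like cluster whose leading genes include the capillary genes Car4 and Gpihbp1 held 0 to 5.59 CPM. In MWAT an unnamed cluster of 502 nuclei led by the gut genes Zg16 and Apoa1 measured 391 CPM (342–446) of Dkk2.

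Dkk3, a divergent Dickkopf protein, lies on chromosome 7 (112116017 to 112159057, minus strand). In FAP-like nuclei it measured 8.34 CPM (4.86–13.4) in SWAT, 5.22 (2.50–9.59) in EWAT, 51.3 (39.6–65.3) in MWAT, 2.14 (0.584–5.49) in NWAT and 28.2 (15.4–47.3) in HWAT. MWAT stood 23.9-fold (8.91–90.4) above NWAT, whose level was not above that of its immune-like nuclei (4.29 CPM). The Robo2-led cluster of 277 MWAT nuclei held 117 CPM (81.3–162), and without it the MWAT level was 31.0 CPM (20.9–44.2). That interval lies inside the interval of HWAT. Per 100 counts of the mesothelial markers, FAP-like nuclei of MWAT held 17.3 Dkk3 counts and those of HWAT 6.90, against 1.72 and 1.62 in the mesothelial-like nuclei of the same libraries. Of the other classes, neuron-like nuclei of MWAT held 136 CPM (103–176) and Schwann-like nuclei of MWAT 115 (84.0–153).

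The members also varied within the FAP-like nuclei. Clustered again by themselves they gave 11 sub-clusters, most of which were filled by 1 depot: 812 of 1116 SWAT nuclei lay in sub-cluster 0, 535 of EWAT in 2, 700 of MWAT in 1, 454 of NWAT in 4 and 314 of HWAT in 5. Depot and sub-cluster therefore cannot be told apart for these. Sub-cluster 1 matched the Cd142-type markers, but gut genes such as Reg3b and Defa24 lead it, so it is given by number, and immunoglobulin and airway genes (Igkc, Scgb1a1) lead sub-cluster 5. Sub-cluster 6, led by Kcnn3 and Robo2, held 276 nuclei, all of MWAT, or 25.2% of the FAP-like nuclei there. It matched no progenitor marker list, with 0 of 7 preadipocyte markers raised 2-fold. Sub-cluster 3, with 562 nuclei, matched the Dpp4-type interstitial progenitors by all 6 markers, had Adamts16, Sema3e, Pi16 and Dpp4 among its leading genes, and was filled by SWAT (100), EWAT (219), MWAT (61) and NWAT (177).

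**Figure D3:**
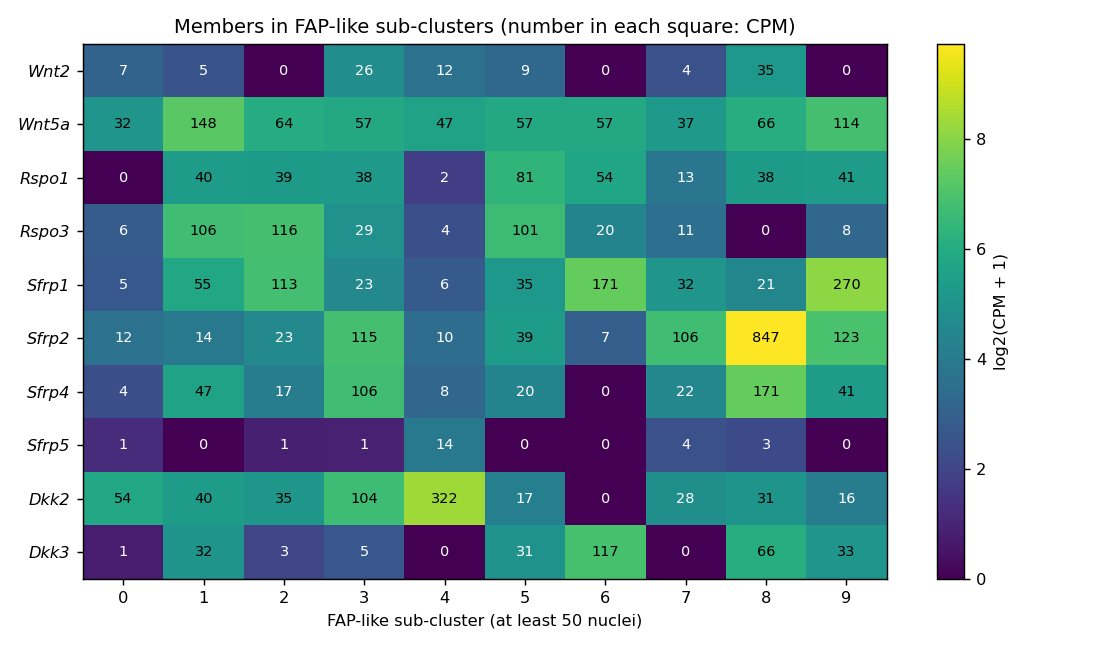
CPM of the 10 genes in the FAP-like sub-clusters with at least 50 nuclei, with the CPM in each square and the colour showing log2(CPM + 1). Sub-cluster 8 stands out for Sfrp2 (847 CPM), sub-cluster 4 for Dkk2 (322 CPM) and sub-cluster 9 for Sfrp1 (270 CPM).

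In this shared sub-cluster Dkk2 again differed between depots. It measured 167 CPM (111–241) in SWAT and 208 (166–258) in NWAT, against 10.8 (3.51–25.2) in EWAT and 0 counts in MWAT, where the interval reached 42.1. SWAT and NWAT overlapped there. Sfrp2 measured 220 CPM (155–304) in SWAT, 125 (93.1–164) in NWAT, 88.6 (63.6–120) in EWAT and 0 in MWAT, again with an interval up to 42.1. Rspo3 differed less clearly, with 11.9 CPM (1.44–43.0) in SWAT, 25.9 (13.4–45.3) in EWAT, 103 (47.0–195) in MWAT and 19.6 (8.47–38.7) in NWAT. EWAT and NWAT overlapped in it, unlike in the whole class, and Sfrp1 was likewise at 25.9 (13.4–45.3) in EWAT and 29.4 (15.2–51.4) in NWAT. In EWAT 88.4% of the FAP-like Rspo3 counts and 68.6% of those of Sfrp1 came instead from sub-cluster 2.

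Sfrp4 and Wnt2 had higher levels in the Dpp4-type sub-cluster than in the rest of the FAP-like nuclei of SWAT and NWAT. Sfrp4 measured 131 CPM (82.1–198) in SWAT, 80.0 (56.3–110) in EWAT, 68.5 (25.1–149) in MWAT and 135 (102–176) in NWAT, against 24.6, 22.0, 25.4 and 21.9 CPM in the rest. Wnt2 measured 41.7 CPM (16.8–85.9) in SWAT and 41.7 (24.3–66.7) in NWAT, against 12.3 and 11.0 in the rest. In SWAT the Cd142-type sub-cluster 8 was as high, with 152 CPM (107–211) of Sfrp4 and 42.3 (20.3–77.8) of Wnt2. In NWAT 78.9% of the FAP-like Rspo1 counts fell in the Dpp4-type sub-cluster, at 36.8 CPM (20.6–60.7) against 2.74 in the rest.

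Mesothelial-like nuclei were the main site of Rspo1, and held 73.7 to 91.6% of its counts in EWAT, MWAT, NWAT and HWAT. Rspo1 measured 512 CPM (488–537) for EWAT, then 506 (486–527) in MWAT, 441 (413–470) in NWAT and 247 (236–259) in HWAT. EWAT and MWAT were alike, NWAT lay slightly below them, and EWAT was 2.07-fold (1.94–2.22) above HWAT. Immune-like nuclei held 3.58 to 19.7 CPM in these depots. Of the 8 members tested in this class, 4 were called in either direction in EWAT, 2 in MWAT, 3 in NWAT and 3 in HWAT, against 11.6%, 12.5%, 12.0% and 19.4% of 15149 genes. Sfrp5 passed the minimum of 20 counts only with the 8 counts of NWAT, where it measured 3.71 CPM against 3.58 in immune-like nuclei. Its calls, higher in NWAT and lower in MWAT, are among those counted and are not read as a result. Most nuclei of EWAT and NWAT shared 1 cluster, those of MWAT lay in a pair of others and those of HWAT in another pair, so cluster and depot partly coincide. The 8 FAP markers summed to 6241 to 9909 CPM in these nuclei, against 9709 to 14231 in FAP-like nuclei.

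**Figure D4:**
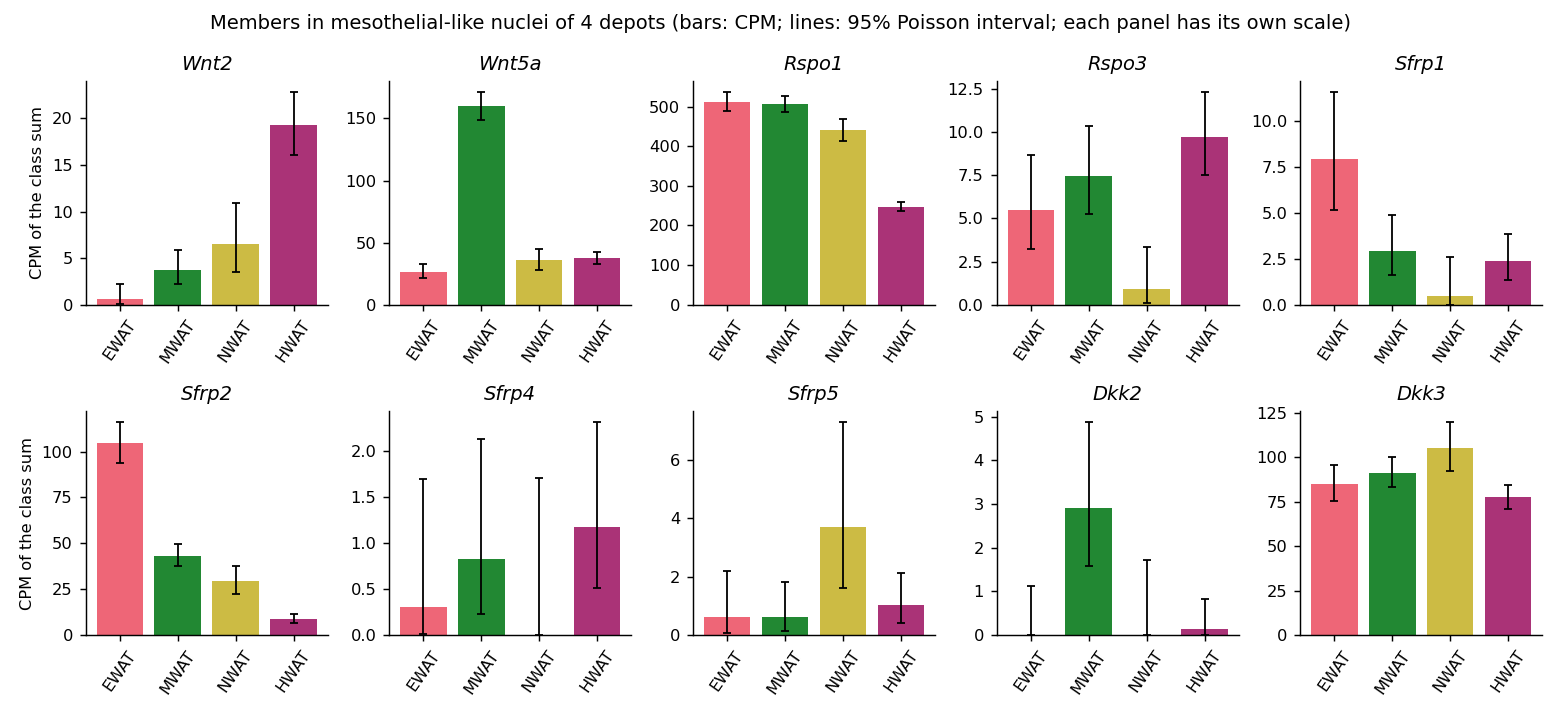
CPM of the 10 genes in mesothelial-like nuclei of EWAT, MWAT, NWAT and HWAT, as bars with 95% Poisson intervals and a separate scale per panel. Wnt5a is highest in MWAT (160 CPM), Sfrp2 in EWAT (105 CPM) and Wnt2 in HWAT (19.3 CPM).

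Wnt5a in mesothelial-like nuclei measured 26.5 CPM (21.2–32.6) for EWAT, then 160 (149–172) in MWAT, 35.8 (28.2–44.7) in NWAT and 37.6 (33.2–42.6) in HWAT. MWAT was 6.04-fold (4.84–7.63) above EWAT, and a cluster of 1410 MWAT nuclei reached 342 CPM (315–372), against 66.4 (57.5–76.3) in the other large MWAT cluster. For Sfrp2 the levels were 105 (93.8–116) for EWAT, 43.2 (37.6–49.5) in MWAT, 29.3 (22.5–37.4) in NWAT and 8.68 (6.61–11.2) CPM in HWAT. Its depots differed at each step, and EWAT was 12.1-fold (9.12–16.2) above HWAT. Dkk3, by contrast, was at 85.1 CPM (75.5–95.7) for EWAT, then 91.5 (83.1–100) in MWAT, 105 (92.1–120) in NWAT and 77.5 (71.0–84.4) in HWAT. It varied 1.36-fold (1.16–1.59) at most. Wnt2 measured 0.608 CPM (0.0737–2.20) for EWAT, then 3.74 (2.22–5.91) in MWAT, 6.50 (3.55–10.9) in NWAT and 19.3 (16.1–22.9) in HWAT. In MWAT, NWAT and HWAT these Wnt2 levels were not above those of immune-like nuclei, which include the Wnt2-carrying macrophages. Epithelial-like nuclei of EWAT also held Rspo1, at 225 CPM (198–255).

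In adipocyte-like nuclei 9 of the 10 members passed the minimum, Sfrp4 only through the 17 counts of EWAT. The counts below include its calls, higher in EWAT and lower in NWAT, which are not read as a result. Calls in either direction numbered 5 in SWAT, 5 in EWAT, 6 in MWAT, 7 in NWAT and 4 in HWAT, against 11.5%, 12.9%, 15.1%, 16.6% and 31.0% of 16801 genes. Adipocytes of the depots were spread unevenly over partly shared clusters. The largest cluster held 3543 nuclei of SWAT, 2480 of EWAT, 786 of NWAT, 440 of MWAT and 31 of HWAT. Of the 1862 of HWAT, 1760 lay in a cluster led by the thermogenic genes Cidea and Ucp1. Apart from Wnt5a, and Sfrp5 in EWAT, no member had a ratio to a counted immune-like level of its library whose interval lay above 1. The ratio itself was above 1 for some, such as Rspo3 in EWAT at 2.86 (0.736–24.5) and Sfrp4 in EWAT at 2.70 (0.423–113). Rspo3 in MWAT, with 5.39 CPM against 0 immune-like counts, was at least 1.46-fold higher against a limit of 3 counts. Rspo1 shows this. It measured 0.446, 8.40, 16.2, 1.65 and 9.32 CPM in the adipocyte-like nuclei of SWAT, EWAT, MWAT, NWAT and HWAT, and 0, 11.9, 19.7, 3.58 and 9.62 CPM in immune-like nuclei. The depots ranked in nearly the same order in both, and the part of free RNA in the adipocyte-like level was not tested.

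**Figure D5:**
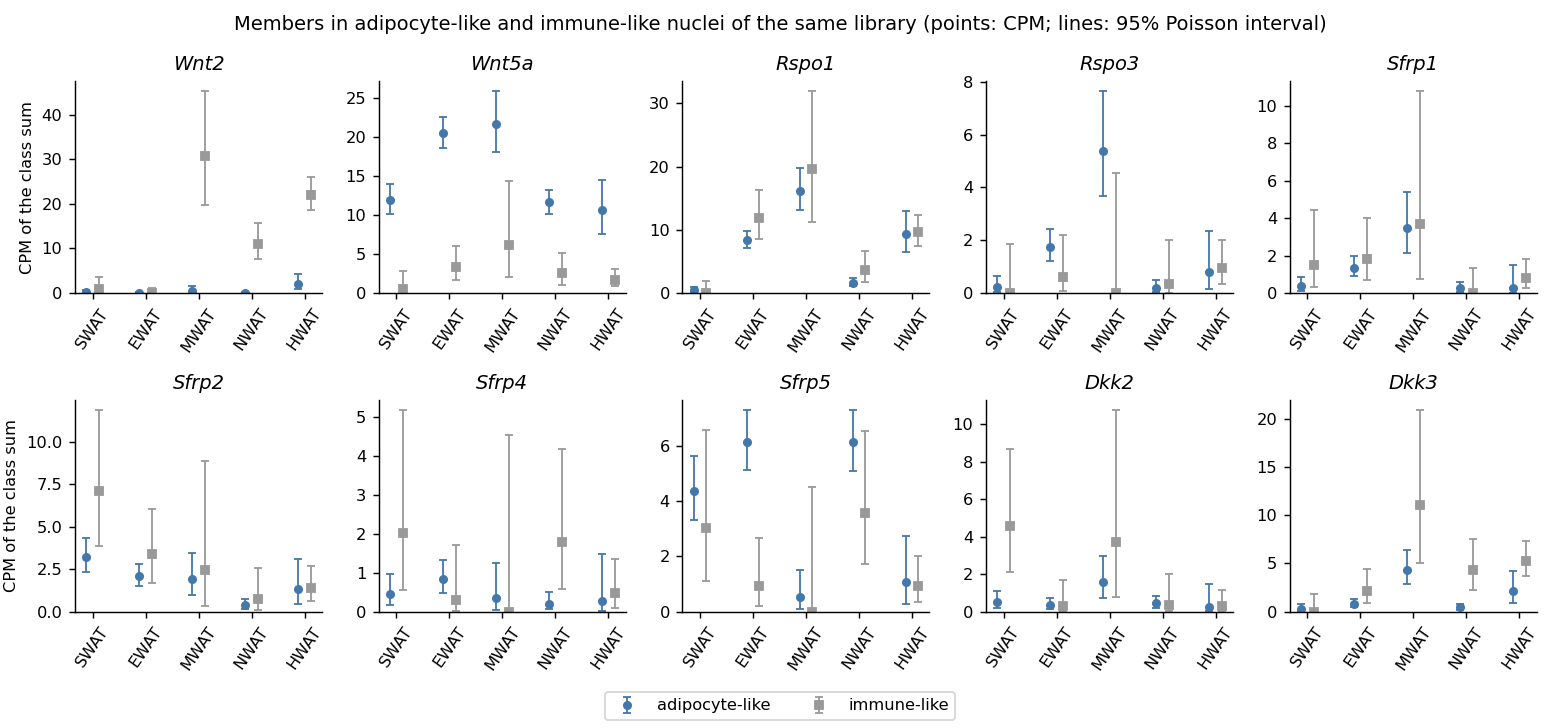
CPM of the 10 genes in adipocyte-like nuclei (circles) and in immune-like nuclei (squares) of the same library, with 95% Poisson intervals and a separate scale per panel. Wnt5a lies above the immune-like level in all 5 depots, while for Rspo1, Sfrp2 and Dkk3 the circles lie at or below the squares in the depots with immune-like counts.

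Other genes of the pathway were called in both directions in FAP-like nuclei. Of 90 other Wnt pathway genes, 57 passed the minimum of counts. In SWAT 3 of the 57 were higher and 7 lower, where 5.42% and 7.26% of all genes were. In EWAT 7 were higher and 2 lower (all genes 5.0% and 4.46%), and in MWAT 11 and 1 (8.30% and 5.18%). In NWAT 1 was higher and 6 lower (3.93% and 7.48%), and in HWAT 3 and 12 (10.3% and 12.3%). Among the secretion and transduction genes of FAP-like nuclei, Wls, the carrier that brings Wnt proteins to the cell surface, measured 141 to 267 CPM and was not called in any depot. Tcf7l2, the main transcription factor of the route, measured 266 to 569 CPM, also uncalled. Of the receptors, Lgr4, an R-spondin receptor, lay between 42.2 CPM in SWAT and 104 in NWAT without a call. Gpc3, a glypican, was lower in SWAT, at 91.8 CPM (79.1–106) against 312 to 591 in the other depots. Ptk7, a co-receptor, measured 1.47 CPM (0.304–4.30) in SWAT, 21.9 in EWAT, 34.7 in MWAT, 8.57 in NWAT and 8.06 in HWAT.

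Among the other ligands, Wnt5b was called lower in the FAP-like nuclei of SWAT, with 9.32 CPM (5.61–14.6). It measured 48.5 (39.2–59.4) in EWAT, 46.5 in MWAT, 24.1 (17.6–32.3) in NWAT and 12.1 (4.43–26.3) in HWAT. The intervals of SWAT and HWAT overlapped. Of the feedback genes, Dact2 was higher in EWAT, at 84.5 CPM (72.0–98.6) against 11.8 to 20.1 in the other depots. Dact1 was called lower in HWAT, at 12.1 CPM (4.43–26.3) against 31.9 to 79.3, with an interval that overlapped that of SWAT (24.6–40.7). Tspan12, a Frizzled co-receptor, was lower in HWAT, at 12.1 CPM (4.43–26.3) against 44.2 to 48.0 in the other depots. Cthrc1, a Wnt co-factor, was called lower there, at 2.01 CPM (0.0510–11.2) against 11.0 to 16.2. Its interval in HWAT overlapped those of all other depots. Ctnnbip1, an inhibitor of β-catenin, was higher in SWAT, at 37.3 CPM (29.4–46.7). Bcl9l and Axin1 each measured 20.1 CPM (9.66–37.0) in HWAT, against 40.2 to 51.5 and 40.2 to 53.2 in the other depots.

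In adipocyte-like nuclei, Axin2, a feedback target of β-catenin, measured 12.6 CPM (10.7–14.6) in SWAT, 25.1 (23.0–27.4) in EWAT, 34.2 (29.6–39.4) in MWAT, 19.1 (17.2–21.0) in NWAT and 71.4 (63.1–80.5) in HWAT. No intervals of these 5 depots overlapped, with the highest level in the depot whose adipocytes form the Ucp1-led cluster. Tcf7l2 was lower in HWAT, at 216 CPM (201–231) against 456 to 748, and so was Apcdd1, a Wnt inhibitor at the cell surface, at 58.9 (51.4–67.2) against 110 to 218. Apcdd1, from the same list of feedback or target genes as Axin2, was thus called in the other direction, as was another gene of that list. In mesothelial-like nuclei of MWAT, 12 of 64 other pathway genes were called in either direction, where 12.5% of all genes were. Wnt5b measured 50.9 CPM (44.7–57.7) there, against 18.6 to 30.7. Ccn4, a target of the pathway, measured 26.8 CPM (22.4–31.9) in MWAT and 0.147 (0.00372–0.819) in HWAT, and Rnf43, which removes Frizzled receptors, 20.4 (16.5–24.8) in MWAT against 4.26 to 8.09.

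Over 48 sums of a class in a depot, and among 16910 genes, the patterns most like each member were found by the Pearson correlation of log2(CPM + 1). The sums share 5 libraries and differ in depth, so these are descriptions. Rspo1 was most like Wt1, a mesothelial transcription factor (r = 0.88), then Lrp2 and Ccbe1. Wnt5a was most like Boc, a Hedgehog co-receptor (r = 0.83), and 2700033N17Rik was also among its 3 most alike. Wnt2 was most like Prg4 (r = 0.68), then Marco and Gm13431, of which Prg4 and Marco are leading genes of the Wnt2-carrying macrophage cluster. Rspo3 was most like Hs6st3 (r = 0.81), then Adamtsl3 and Chrm3. Sfrp1 was most like Islr (r = 0.73), then Wasf3 and Fmn2, and Sfrp2 most like Sult5a1 (r = 0.78), then C7 and Loxl1. Sfrp4 was most like Gm9947 (r = 0.86), then Gm46323 and Nat8f3. Among the 3 genes most like Sfrp5 were Gjc3 (r = 0.67) and Drp2 (r = 0.66). Dkk2 was most like Gm30524 (r = 0.76), then Bdkrb2 and Crispld1. Dkk3 was most like Rspo1 (r = 0.76), the only member in another's list, then Mapk4 and Kcnd2.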

How the data were processed

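The deposited files hold raw UMI counts per gene and nucleus. Per the file headers, Cell Ranger 6.0.1 wrote them. The submitters' processing notes name the mm10 build, and which annotation release was counted is not given in the sources used here. Per the labels' protocols, loading aimed at 8000 nuclei or more and sequencing at a minimum of 20000 reads for each. The deposited libraries held 12324 to 19770 barcodes and 23313545 to 43855063 UMIs, and every barcode had at least 500 UMIs.

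The members and gene lists were chosen with earlier results of these data known. Nuclei were kept with at least 200 genes and at most 10% mitochondrial UMIs (149 removed). Doublets were scored against simulated ones, and the top 0.8% per 1000 nuclei of a library were dropped (9642). The rest were log-normalised, reduced to 2000 variable genes and 40 components, and clustered (20 neighbours, Leiden resolution 1; FAP-like sub-clusters at 0.5) without batch integration. A cluster was named where a marker list had a mean log2 fold of at least 1 over other classes, with a lead of 0.5 and 2 in 3 of the markers (at least 3) raised 2-fold. Rebuilt names may differ from those of the study.

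Counts were summed per class and library as CPM for classes with at least 50 nuclei. Intervals cover counting error only: exact Poisson for levels, conditional binomial for ratios and Clopper-Pearson for shares, all 95%. Those of levels and ratios take the counts as independent, so they are too narrow where many counts lie in few nuclei. A class at 0 was set at 3 counts for ratios. Differences used log2 CPM with 0.5 counts added, for genes with at least 20 counts. Calls and intervals were run on simulated independent Poisson counts. These hold neither the gathering of counts in few nuclei nor a spread between animals, so the run cannot check the intervals for either. With 1 library per depot no p-value was computed.

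All members are named. Of the other pathway genes, up to 3 per class and role were named by rule, those with the largest difference among genes called 2-fold with at least 100 counts; the text gives a selection of them, and Wls, Lgr4, Lgr5 and the FAP-like level of Tcf7l2 were added after their values were seen. The 3 genes most like each member needed 100 counts. A few genes that these rules name are not reported here. Promoters came from RefSeq (GRCm38.p6, 250 bases, 5 of 10 members matched) and positions from GENCODE (GRCm38, 10 of 10 matched). A planned comparison of protein sequences was not run, since no protein sequence was used here. Work ran in Python 3.11.15 with leidenalg 0.10.2, scipy 1.17.1, matplotlib 3.10.9, numpy 2.4.6 and pandas 2.3.3, and in R 4.3.3 with edgeR 4.0.16 for TMM factors only. Alternatives changed doublet removal, filters, clustering, class naming, scaling, added counts and free-RNA subtraction.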

Additional observations from a re-analysis of the deposited data

How the results depend on the processing

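Each depot is 1 pooled library, so no spread between animals could be measured and library and depot cannot be told apart. No paired analysis was possible because each depot has 1 library. Under 13 alternatives, 1 of them (FAP-like nuclei of MWAT from the shared cluster alone) chosen after seeing the data, 24 to 30 of the 30 FAP-like calls of the members were kept, with 6 not testable at a minimum of 100 counts. With a class set per nucleus 2 calls reversed, and with the immune-like level subtracted 1.

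Calls of other pathway genes in FAP-like nuclei numbered 53. They became 81 with a class set per nucleus, 91 with the immune-like level subtracted and 24 at a minimum of 100 counts, where 29 could not be tested. Of the 53, 38 were kept and 4 reversed with a class set per nucleus. With 3 counts added 37 were kept, 15 fell below 2-fold and 1 reversed. After subtraction 42 of the 45 testable ones were kept. Of the 27 member calls in adipocyte-like nuclei, 19 could not be tested after subtraction and 7 of the other 8 were kept, with 8 calls in all. At 100 counts 16 could not be tested and the other 11 were kept. Of the 75 calls of other pathway genes there, 33 could not be tested at 100 counts and 42 were kept. After subtraction 45 could not be tested, and of the other 30, 24 were kept and 4 reversed. In mesothelial-like nuclei other calls went from 44 to 86 after subtraction, where 36 of the 42 testable ones were kept and 1 reversed. The cause of the rises was not tested.

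With a class set per nucleus, the FAP-like Sfrp5 ratio of NWAT over MWAT was 0.411, not 4.08, and without doublet removal 12.5. With a class set per nucleus, Rspo3 in HWAT over SWAT went from 17.5 to 10.6, Dkk3 in MWAT over NWAT from 23.9 to 12.7 (14.5 with the shared cluster alone), Dkk2 in NWAT over HWAT from 16.9 to 31.1 and Sfrp4 in NWAT over HWAT from 2.31 to 4.50. Rspo1 in HWAT over SWAT went from 14.6 to 22.2 as a mean over nuclei, and adipocyte-like Sfrp5 in EWAT over MWAT from 11.8 to 7.35 with doublets removed at 1.6%. Wnt2 in NWAT over EWAT fell from 6.78 to 2.38 after subtraction, which for this gene removes macrophage transcripts. Mesothelial-like Rspo1 in EWAT over HWAT lay at 1.73 to 2.26 and Dkk3 in NWAT over HWAT reached 1.79. Of 27 ratios, 10 values under an alternative could not be given, 7 of them after subtraction, where fewer than 3 counts of the higher level were left. Low counts limit Sfrp5 and Wnt2 in FAP-like nuclei most.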

Other observations

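Lgr5, a receptor for R-spondins, was detected in the FAP-like nuclei of SWAT and HWAT alone among the 5 libraries. It had 29 counts in SWAT (14.2 CPM), 27 in HWAT (54.4 CPM) and 0 in EWAT, MWAT and NWAT, where 3 counts would have been 1.57, 2.37 and 1.61 CPM. The gene was picked after its values were seen, and it has fewer than the 100 counts that the rule for named genes asks.

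In mesothelial-like nuclei, Wnt4, a ligand needed for kidney and gonad development, measured 27.7 CPM (22.3–34.0) for EWAT, then 52.2 (45.9–59.0) in MWAT, 13.9 (9.40–19.9) in NWAT and 37.1 (32.6–41.9) in HWAT. Wnt11 measured 1.22, 10.6, 0.464 and 7.06 CPM in the same order, with the depots in the same rank. Tnfrsf19, a feedback or target gene, was at 60.3 CPM (53.5–67.6) in MWAT against 29.2, 8.82 and 6.47 in EWAT, NWAT and HWAT.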
